A study of Mus musculus with 4 samples.

Results

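Accessible chromatin was examined at 8 genes of the limb muscle precursors and their descendants, namely Pax3, Lbx1, Met, Pax7, Myf5, Myf6, Myod1 and Myog. A region was given to one of them when its nearest transcription start of a protein-coding gene was a start of that gene. Regions within 2.5 kb of a start of one of the 8 genes were to be added, and this added 0. The 8 genes, among 22380 protein-coding genes, held 49 of the 42613 regions at E9.5 and 31 of the 46765 regions at E10.5. The regions come from an ATAC-seq experiment, which reads out where a transposase can insert adapters into the genome, of wild-type NMRI mouse embryos.

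The E9.5 group had 2 biological replicates, each a pair of forelimb buds of an E9.5 embryo with the adjoining trunk still attached, and the protocol calls this stage E9.75. The E10.5 group had 2 biological replicates, each a pair of forelimb buds of an E10.5 embryo, with no trunk named. Its tissue label also names hindlimb buds, whereas its source label and the protocol name forelimbs only. No allele or treatment distinguished the groups. The values used were 1 combined list of regions per stage, so sequencing depth is unknown, no value has a replicate error, and no test was made. Age and attached trunk differ together between the lists and cannot be told apart, and in such bulk tissue fewer cells of a type and less open chromatin per cell cannot be told apart either. Shares carry 95% Wilson intervals, which cover counting error only and treat regions as independent.

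Limb muscle does not arise from the limb bud mesenchyme. Its precursors leave the dermomyotome of the somites at limb level, migrate into the bud and only then turn on the genes of muscle differentiation. Pax3, a paired-box transcription factor, marks these precursors and acts upstream of Met, the receptor for hepatocyte growth factor that is needed for their departure. Lbx1, a homeobox factor, is needed for their lateral migration. Pax7 is the paralogue of Pax3 and is known for muscle stem cells. Myf5, Myf6, Myod1 and Myog encode the basic helix-loop-helix factors that commit cells to muscle and drive differentiation. Pax3, Pax7 and Lbx1 are also used in the dorsal neural tube, and Pax3 in the neural crest.

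Stretches of 3 regions are shown to place the main differences on the genome (mm9, with sequence from the NCBIM37 assembly). The first is 240 bp of chr19:45305942-45306181, plus strand, from the centre of the highest-ranked distal region of Pax3, Lbx1 or Met without a counterpart at the other stage. The second is 240 bp of chr10:106979854-106980093, plus strand, from the corresponding region among the other 5 genes. The third is the 240 bp just before the first start of Pax7, chr4:139389446-139389685, minus strand, since Pax7 had a promoter region at E9.5 only. Capitals mark CG dinucleotides, of which they hold 18, 5 and 11, at a GC content of 60.4, 35.0 and 50%.
Lbx1, distal, E9.5: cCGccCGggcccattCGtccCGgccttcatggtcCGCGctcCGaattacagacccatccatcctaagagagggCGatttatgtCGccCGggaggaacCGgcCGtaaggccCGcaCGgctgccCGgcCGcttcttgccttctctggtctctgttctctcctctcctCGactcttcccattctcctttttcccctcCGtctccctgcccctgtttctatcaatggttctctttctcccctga
Myf6, distal, E10.5: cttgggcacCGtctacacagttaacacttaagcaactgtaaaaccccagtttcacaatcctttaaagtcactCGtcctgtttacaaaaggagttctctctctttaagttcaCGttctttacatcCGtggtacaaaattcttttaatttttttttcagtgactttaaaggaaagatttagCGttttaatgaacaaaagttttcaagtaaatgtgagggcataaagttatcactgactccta
Pax7, before the first start, E9.5: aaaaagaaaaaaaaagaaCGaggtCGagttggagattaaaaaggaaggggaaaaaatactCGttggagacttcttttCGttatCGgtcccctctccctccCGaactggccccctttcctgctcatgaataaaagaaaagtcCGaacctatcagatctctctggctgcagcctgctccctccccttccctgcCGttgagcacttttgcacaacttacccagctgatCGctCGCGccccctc

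The 8 genes had more regions at E9.5 than at E10.5, whereas the whole list was longer at E10.5. Their regions covered 54.94 kb at E9.5 and 30.96 kb at E10.5, with median widths of 942 and 880 bp against 1100 and 1000 bp over all regions. Pax3, Lbx1, Met and Pax7 had more regions at E9.5, Myf5 and Myog had equal numbers, and Myf6 and Myod1 had more at E10.5. Of the 16436 genes with a region in either list, 26.2% had more at E9.5 and 29.2% had more at E10.5. The excess at E9.5 was 8 regions for Pax7, and 38 genes (0.231%) had at least this excess. Lbx1 had an excess of 6, which 104 genes (0.633%) reached, Pax3 of 4 (358 genes, 2.18%) and Met of 2 (1601 genes, 9.74%).

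**Figure D1:**
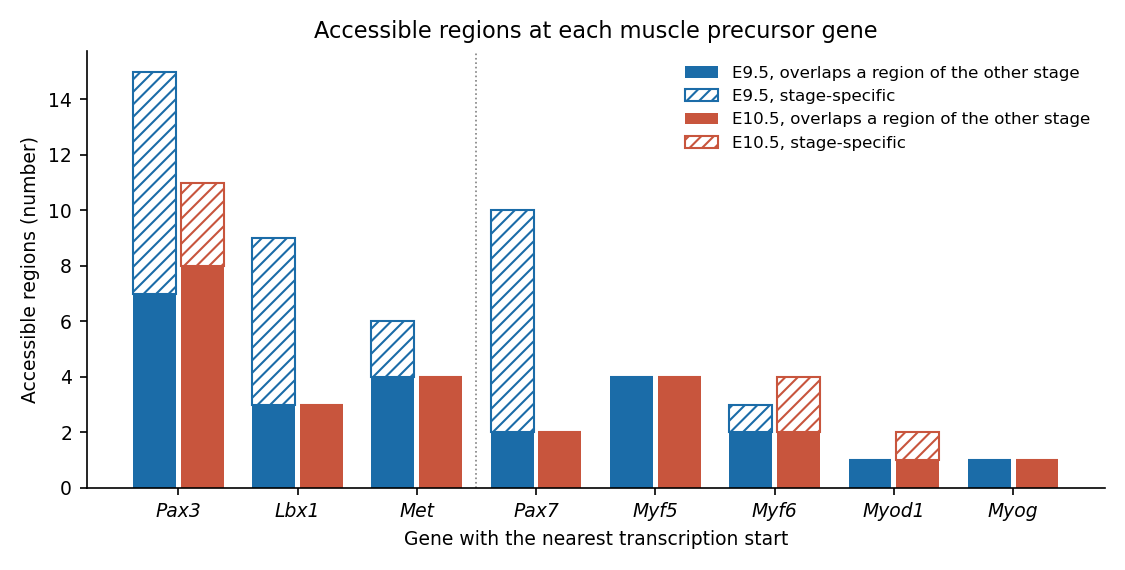
Number of accessible regions per gene (y axis) for the 8 genes (x axis) at E9.5 (blue) and E10.5 (red), with stage-specific regions hatched and Pax3, Lbx1 and Met left of the dotted line. Pax3, Lbx1 and Pax7 had 15, 9 and 10 regions at E9.5 and 11, 3 and 2 at E10.5, whereas Myf6 had 3 and 4.

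Regions were called shared where at least 1 bp was also listed at the other stage, and stage-specific where not. Of the 49 regions at E9.5, 25 were stage-specific (51.0%, 37.5 to 64.4%), compared with 29.9% of all E9.5 regions. Of the 31 regions at E10.5, 6 were stage-specific (19.4%, 9.19 to 36.3%), compared with 35.0% of all E10.5 regions. The share therefore lay above the background of its list at E9.5, while at E10.5 the interval included it. Most of the difference was in distal regions, those whose centre lay more than 2.5 kb from a start. At E9.5, 23 of 39 distal regions were stage-specific (59.0%, 43.4 to 72.9%), against 40.3% of all distal regions, and at E10.5 6 of 23 (26.1%, 12.5 to 46.5%), against 49.6%. Among distal regions the interval thus excluded the background at both stages.

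Weak regions are more often stage-specific in both lists, and the 8 genes had few strong ones. Each region has a score, 10 times the negative log10 of the best p-value of the peak caller among the replicates, which grows with depth. It is therefore given with its percentile, the percentage of regions of the same list with a lower score. Their median percentile was 37.43 in the E9.5 list and 27.02 in the E10.5 list, and scores over all regions ran from 60.52 to 3233.06 and from 60.44 to 3230.05. Of the 25 stage-specific E9.5 regions, 4 scored under 100, the value of the stringent p-value of 1e-10. In the higher-scoring 50% of its list the set had 15 regions at E9.5, of which 5 lacked overlap with any E10.5 region, while 10.8% of all such regions did. At E10.5 it had 6, of which 1 was stage-specific, beside 18.1% of all such regions. The excess at E9.5 was therefore also seen in the higher-scoring 50%, on small counts. These 5 regions lay at percentiles from 57.05 to 69.14, so they were of middle rank within the whole list. No E9.5 region of the 8 genes ranked above 76.14. The 10.8% covers regions of all higher ranks, promoter-proximal ones included, and was not matched for rank or distal position. When both lists were restricted in this way, 13 of 15 and 4 of 6 regions were stage-specific (86.7 and 66.7%), beside 25.9 and 31.9% of all, so the low share at E10.5 turned into a high one.

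Migrating-precursor genes and the genes of the trunk and later muscle differed by less than the counting error when all 8 genes were used. Pax3, Lbx1 and Met together had 30 regions at E9.5, of which 16 were stage-specific (53.3%, 36.1 to 69.8%), and 18 at E10.5, of which 3 were (16.7%, 5.84 to 39.2%). The other 5 genes had 19 at E9.5, of which 9 were stage-specific (47.4%, 27.3 to 68.3%), and 13 at E10.5, of which 3 were (23.1%, 8.18 to 50.3%). The difference, first group minus second, was 5.97 percentage points at E9.5 (95% Newcombe interval -21.1 to 31.9) and -6.41 points at E10.5 (-35.7 to 20.6), so differences of over 20 points in either direction remain possible. The sign at E10.5 depended on the overlap required, since a reciprocal overlap of at least 50% gave 38.9% for the first group against 23.1%, a difference of 15.8 points (-17.1 to 42.8). Each group had a share that rested on a single gene. The E9.5 share of the first group did not, and stayed at 47.6 to 58.3% whichever of its genes was left out. Without Pax7, 1 of 9 E9.5 regions of the second group was stage-specific (11.1%), which made the difference 42.2 points with an interval of 5.55 to 61.0 that excluded 0. Likewise without Pax3, 0 of 7 E10.5 regions of the first group were, with an upper limit of 35.4%.

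**Figure D2:**
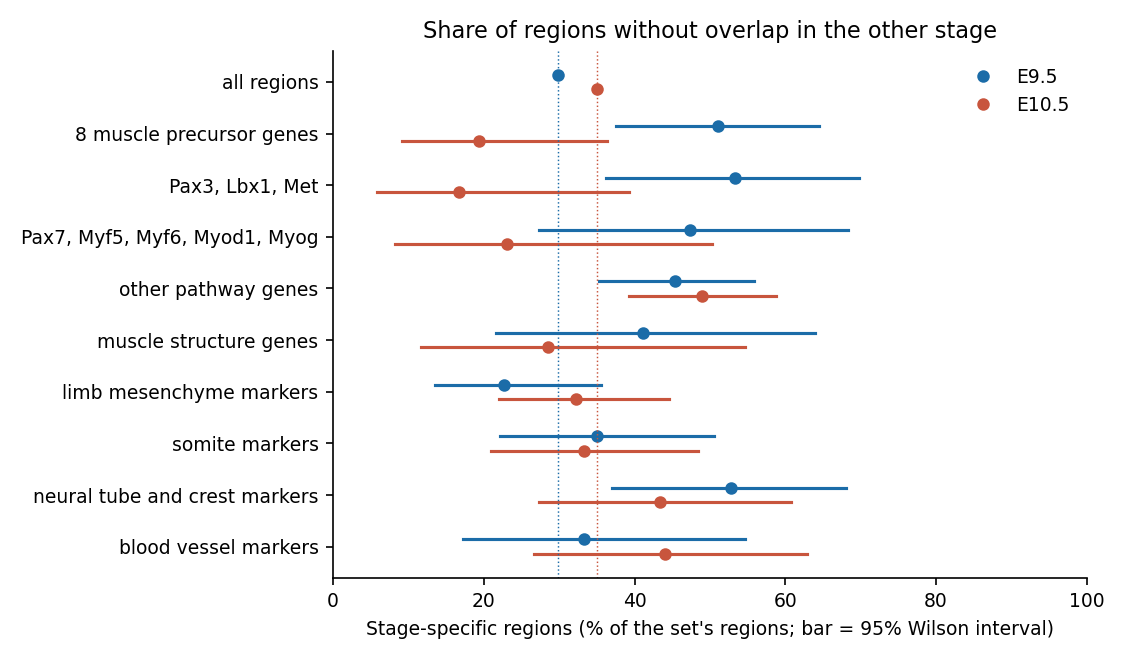
Percentage of regions without overlap in the other stage (x axis) for each set of genes (y axis) at E9.5 (blue) and E10.5 (red), with 95% Wilson intervals as bars and the values of all regions as dotted lines. For the 8 genes the E9.5 value of 51.0% lies above the line at 29.9%, and the E10.5 value of 19.4% lies below the line at 35.0% with an interval that reaches it.

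Pax3 (ENSMUSG00000004872, chr1:78097842-78193709, minus strand) had the most regions of the 8 genes, 15 at E9.5 covering 18.87 kb and 11 at E10.5 covering 10.12 kb. Its promoter region spanned 2621 bp at E9.5 (chr1:78192846-78195466) with a score of 702.47 at percentile 73.02. At E10.5 the overlapping region spanned 1325 bp (chr1:78192786-78194110), with a score of 222.78 at percentile 47.03. The promoter was thus open in both lists, with a narrower and lower-ranked region in the later one.

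Within introns, Pax3 had 9 regions at E9.5 against 5 at E10.5. The highest-scoring stage-specific region of the gene was an intronic one at E9.5, 29.00 kb downstream of the start (chr1:78163795-78165032, score 475.18, percentile 65.19). Of the shared intronic regions, the one at 86.27 kb went from percentile 64.53 at E9.5 to 8.52 at E10.5, and the one at 6.72 kb from 67.49 to 27.02. By contrast, the region at 67.38 kb had nearly the same rank in both, 33.30 and 34.90. Upstream, a region of 2726 bp centred 19.76 kb from the start at E9.5 (chr1:78212105-78214830, percentile 68.57) was covered by a pair of narrower regions at E10.5, at percentiles 29.80 and 43.43. The 3 stage-specific regions at E10.5 were weak and far from the gene, at 187.87 and 175.14 kb downstream and 40.94 kb upstream, with percentiles of 8.55, 24.35 and 23.22.

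Lbx1 (ENSMUSG00000025216, chr19:45307178-45310301, minus strand) had 9 regions at E9.5, of which 6 were stage-specific, and 3 at E10.5, all of them shared. Its strongest region was the E9.5-specific one printed in part above (chr19:45305229-45306895, 1667 bp), which lay outside genes 4.24 kb downstream of the start, with a score of 577.28 at percentile 69.14. A promoter-proximal region over the coding exon (chr19:45308981-45310371, score 257.57, percentile 49.68) was also found at E9.5 only. Just upstream of the start, a region centred 0.90 kb away was found in both lists, at percentiles 24.75 and 13.02. The other shared regions lay 14.75 kb downstream, at percentiles 56.43 and 47.20, and 35.11 kb upstream, at 39.58 and 32.42. The regions at the gene body and just downstream of it were therefore those found at E9.5 only, together with 4 weaker distal ones at percentiles from 0.90 to 24.27.

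Met (ENSMUSG00000009376, chr6:17413800-17523980, plus strand) differed least between the lists among the precursor genes. Its promoter region had the highest score of the set at both stages, 826.19 at E9.5 (chr6:17413116-17414730, percentile 76.14) and 535.68 at E10.5 (chr6:17413118-17414634, percentile 73.13). A second promoter-proximal region, in an intron near an internal start (chr6:17495288-17496172), had scores of 236.34 and 251.08 at percentiles 46.85 and 51.46. The first start was thus covered by a region in both lists. The region near the internal start was centred 1.24 kb upstream of it at E9.5 and 1.19 kb at E10.5, and did not reach it. Downstream of the gene, the shared region at chr6:17533701-17534552 went up in rank from percentile 41.06 at E9.5 to 68.60 at E10.5. Only 2 regions of Met were stage-specific, both at E9.5, the stronger one 12.44 kb upstream (chr6:17400832-17401891, score 379.13, percentile 60.26).

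Pax7 (ENSMUSG00000028736, chr4:139292977-139389445, minus strand) showed the widest gap between the lists, with 10 regions at E9.5 covering 10.94 kb and 2 at E10.5 covering 1.57 kb. Its promoter region, over the start and the sequence printed above (chr4:139388445-139390193, score 333.94, percentile 57.05), was found at E9.5 only. The highest-scoring stage-specific distal region lay in an intron 21.84 kb from the start (chr4:139366501-139367675, score 351.99, percentile 58.37), within a group of 4 stage-specific intronic regions between 21.84 and 28.82 kb. Both shared regions were intronic and ranked lower at E10.5. The one at 11.19 kb, the strongest of the gene at E9.5 (score 484.59), went from percentile 65.56 to 14.37, and the one at 85.58 kb from 44.90 to 20.84. Just outside the promoter distance, a further E9.5-specific region was centred 2.63 kb upstream of the start, so the sequence on both sides of the start was listed in the earlier stage alone.

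**Figure D3:**
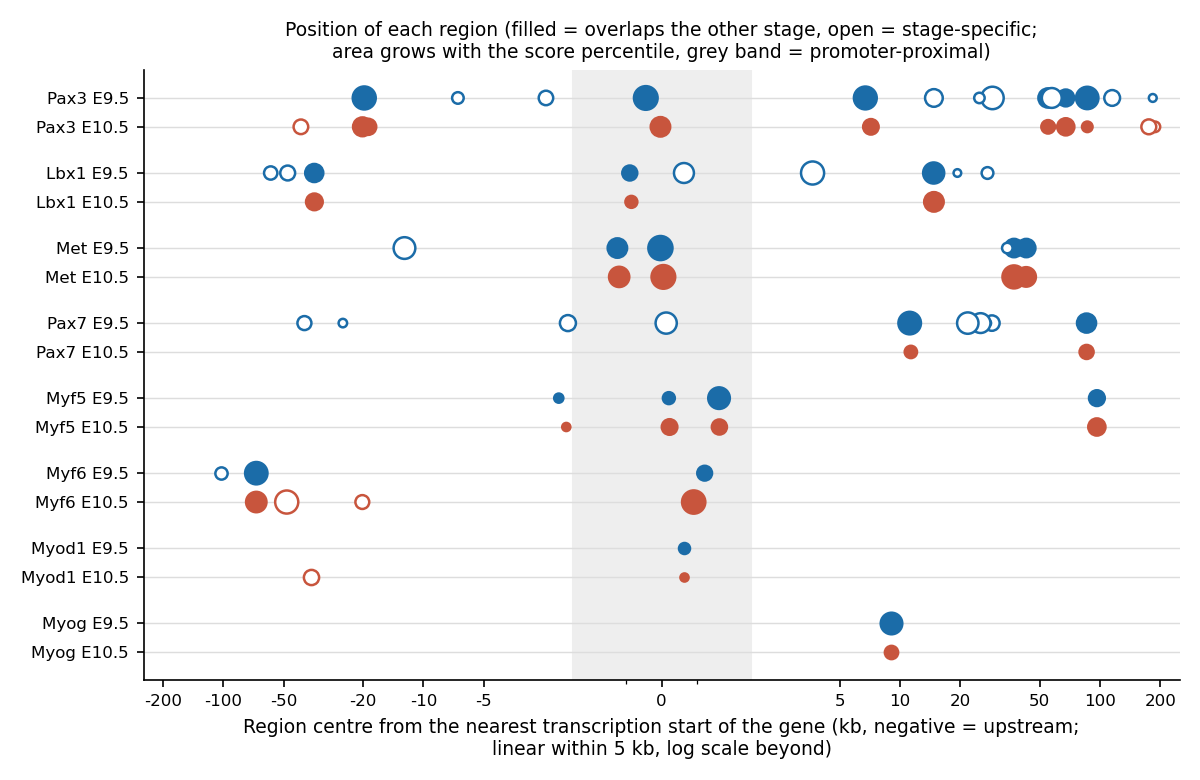
Distance of each region's centre from the nearest start of its gene (x axis, kb, linear within 5 kb and logarithmic beyond) for each gene and stage (y axis), with shared regions filled, stage-specific ones open and a larger area for a higher score percentile. Open E9.5 symbols cluster at Pax3, Lbx1 and Pax7, and the Pax7 row of E10.5 has no symbol in the grey promoter band.

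Myf5, the earliest of the myogenic factors in the somite (ENSMUSG00000000435, chr10:106919964-106923190, minus strand), had the same 4 shared regions in both lists. A region within the gene, centred 1.61 kb from the start (chr10:106920796-106922362), had a score of 368.89 at percentile 59.52 at E9.5 and 137.3 at percentile 25.23 at E10.5. The region over the start itself moved the other way, from percentile 13.06 to 27.38, with scores of 112.32 and 143.23. A weak region just outside the promoter distance, 2.89 kb upstream at E9.5 and 2.68 kb at E10.5, stayed at percentiles of 4.59 and 2.04. The fourth lay far downstream in an intron of Lin7a, at percentiles 28.27 and 35.04.

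Myf6 (ENSMUSG00000035923, chr10:106929916-106931785, minus strand), the neighbour of Myf5 that encodes the factor MRF4, went against the direction of Pax3 and Pax7. Its promoter-proximal region went from a score of 137.31 at percentile 23.89 at E9.5 (chr10:106930135-106931020) to 481.36 at percentile 70.39 at E10.5 (chr10:106930017-106931755). Among all shared regions, 3.24% went up at least as far in rank. The strongest stage-specific region of the 8 genes at E10.5 also lay here, 48.19 kb upstream (chr10:106979230-106980718, score 459.94, percentile 69.26), in an intron of Ptprq. Another E10.5-specific region lay 20.20 kb upstream at percentile 20.07. A shared region 68.38 kb upstream, likewise in Ptprq, had percentiles of 64.46 and 52.30, and an E9.5-specific one at 102.56 kb had 14.19. These distal regions belong to Myf6 by the nearest start only, and those in Ptprq lie inside another gene.

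Myod1 (ENSMUSG00000009471, chr7:53631844-53634462, plus strand), a factor of muscle commitment, had a weak shared region over its coding exon. Its score was 106.31 at percentile 9.97 at E9.5 (chr7:53632054-53632912) and 77.82 at percentile 2.05 at E10.5. A single E10.5-specific region lay 36.47 kb upstream, outside genes (chr7:53594935-53595812, score 138.67, percentile 25.79). Its central 300 bp (chr7:53595224-53595523, plus strand) were chosen for display after its values were seen, because they hold both of the motifs that are described further on, CAGCTG and TAATTA, which are in capitals.
Myod1, distal, E10.5: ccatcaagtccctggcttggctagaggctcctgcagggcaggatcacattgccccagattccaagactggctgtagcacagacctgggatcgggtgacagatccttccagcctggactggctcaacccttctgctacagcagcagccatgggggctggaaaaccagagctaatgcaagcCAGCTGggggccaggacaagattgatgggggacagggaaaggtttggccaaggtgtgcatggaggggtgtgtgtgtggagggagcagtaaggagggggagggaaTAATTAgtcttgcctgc

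Myog (ENSMUSG00000026459, chr1:136186581-136189124, plus strand), the factor of terminal differentiation, was the only one of the 8 genes without a promoter region in either list. The 1 region given to it lay 9.04 kb beyond its start, in an exon of Ppfia4 (chr1:136194991-136196252), with a score of 368.89 at percentile 59.52 at E9.5 and 120.12 at percentile 17.91 at E10.5. At the start of Myog itself no accessible region was listed, which does not show that it was closed in every cell.

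Most of the 8 genes had a promoter region. One was listed for 7 of 8 genes at E9.5, compared with 65.1% of all protein-coding genes, and for 6 of 8 at E10.5, compared with 62.5%. The exceptions were Myog at both stages and Pax7 at E10.5. A promoter region here is one centred within 2.5 kb of a start, and it need not cover the start. Those of Myf6 and Myod1 did not reach the start at either stage. The start of Lbx1 was covered at E9.5 only, by the stage-specific region over its coding exon. As a share of regions, promoter-proximal ones made up 10 of 49 at E9.5 (20.4%, 11.5 to 33.6%) and 8 of 31 at E10.5 (25.8%, 13.7 to 43.2%), against 38.3 and 32.9% of all regions. At E9.5 the regions of these genes were thus more distal than the list as a whole.

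The base composition of the starts differed between the genes. A start was called CpG-rich when the 250 bp before and 50 bp after it had a GC content of at least 50% and an observed over expected CpG ratio of at least 0.6. This held for 2 of 3 starts of Pax3, 3 of 7 of Met and 1 of 2 of Pax7, and for no start of Lbx1, Myf5, Myf6, Myod1 and Myog. Of all genes with a CpG-rich start, 97.0% had one in the earlier and 93.8% in the later list, against 31.4 and 29.3% of the other genes. Pax7, with a ratio of 0.75 at its best start, was thus among the minority of such genes without a promoter region at E10.5. Lbx1, Myf5, Myf6 and Myod1, with ratios from 0.16 to 0.56, had promoter regions in both lists although most genes of their class did not. This class describes the window at the start only. Around their centres, the E9.5 promoter-proximal regions of Lbx1 had ratios of 0.94 and 0.72 at 72.8 and 69.4% GC. That of Myod1 had 0.99 at 67.1%, so these regions were themselves CpG-rich. Those of Myf5 (0.31 and 0.25) and Myf6 (0.52) were not.

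Shared regions were compared by their rank within each list, since raw scores depend on depth. Of the 24 shared E9.5 regions of the 8 genes, 17 had a lower percentile at E10.5, compared with 49.7% of all 29883 shared regions. The median change was -9.95 percentile points, and over all shared regions it was 0.09 with quartiles of -9.71 and 9.49. Pax3 contributed 6 of 7 lower regions with a median of -25.99. Its region at 86.27 kb changed by -56.00 points, a drop that 0.676% of all shared regions reached, and the Pax7 region at 11.19 kb by -51.19 (1.17%). Lbx1 had 3 of 3 lower by modest amounts, with a median of -9.22. The single Myog region changed by -41.60 (2.97%). Met was the exception among the precursor genes, with 1 of 4 lower and a median of 5.58, and Myf5 had 2 of 4 lower.

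**Figure D4:**
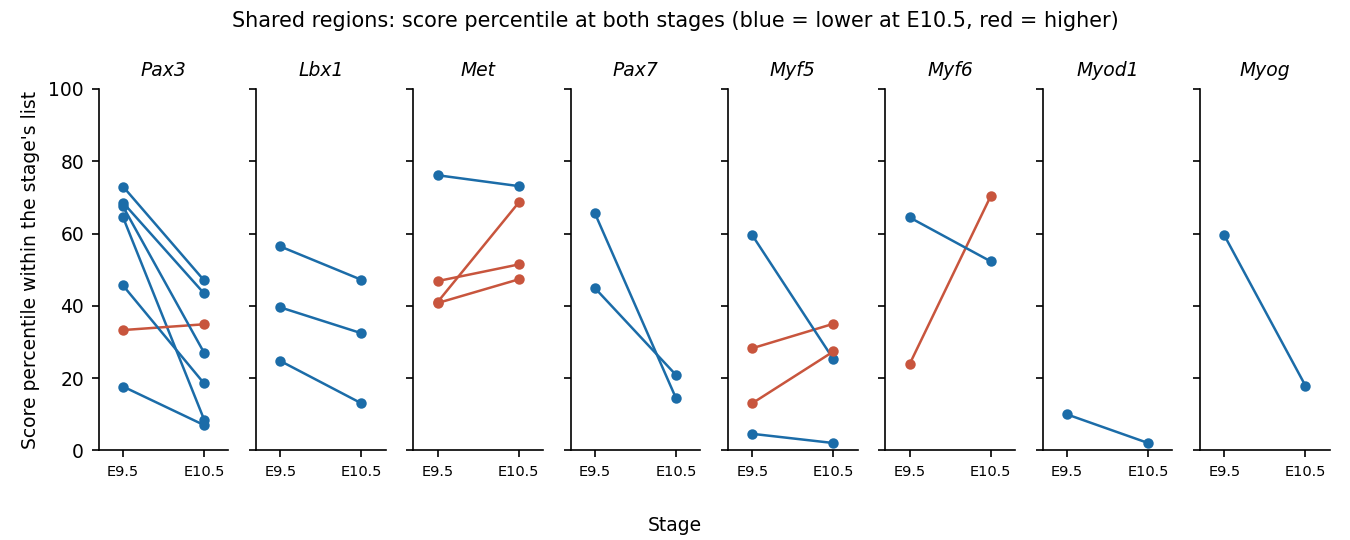
Score percentile within the stage's own list (y axis, 0 to 100) of each shared region at E9.5 and E10.5 (x axis), with 1 panel per gene, blue lines for a lower and red lines for a higher percentile at E10.5. In Pax3 6 of 7 lines fall and in Pax7 both do, whereas 3 of 4 rise in Met and the promoter-proximal region of Myf6 rises from 23.89 to 70.39.

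GC content was considered because it differed between the stage-specific classes of the lists. Within 150 bp on either side of the centre, all E9.5-specific regions had a median of 51.83% and all E10.5-specific regions 44.19%. The 25 E9.5-specific regions of the 8 genes had 56.15% and their 6 E10.5-specific regions 42.52%. Within quintiles of GC content of the E9.5 list, the stage-specific share of the 8 genes lay above that of all regions in each of the 5, but not by like amounts. Up to 56.5% GC, the counts from low to high were 6 of 12 beside 37.0%, 4 of 10 beside 39.1% and 4 of 8 beside 37.5%. The gap was thus small in part of the quintiles. The widest gap was between 56.5 and 64.8% GC, where 10 of 12 regions were stage-specific, compared with 26.2% of all, and at the highest GC it was 1 of 7 beside 9.6%. At E10.5, the 8 regions between 43.2 and 48.2% GC included 0 stage-specific ones, beside 56.1% of all in that range. The low share at E10.5 rested on these 8 regions, since elsewhere the share was near that of all regions or above it. In the other ranges the counts from low to high GC were 3 of 4 beside 74.5%, 2 of 4 beside 33.7%, 1 of 7 beside 10.47% and 0 of 8 beside 0.42%.

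Short motifs of factors of this pathway were counted on both strands in the same windows. CAGCTG, a form of the E box bound by the myogenic factors, was found in 15 of 49 regions at E9.5 (30.6%, 19.5 to 44.5%), against 23.5% of all regions, and in 9 of 31 at E10.5 (29.0%, 16.1 to 46.6%), against 21.8%. Both intervals include the background. Among distal E9.5-specific regions it was in 9 of 23 (39.1%, 22.2 to 59.2%), against 28.7% of all such regions. TAATTA, a core that many homeobox factors bind, was found in 7 of 49 at E9.5 (14.3%, 7.1 to 26.7%), against 5.1%, and in 5 of 31 at E10.5 (16.1%, 7.1 to 32.6%), against 8.8%. At E9.5 its interval lay above the share of the list, but the 8 genes had more distal regions. Among distal regions it was in 6 of 39 (15.4%, 7.2 to 29.7%) against 7.2%, so the lower limit and the background were equal as rounded. Among distal E9.5-specific regions it was in 5 of 23 (21.7%, 9.7 to 41.9%), against 6.5% of all such regions. The other motifs reported here did not stand out at E9.5. GTCACG, of Pax3, was in 3 of 49 regions (6.1%, all regions 7.2%), GGAATG, of Tead factors, in 8 (16.3%, all 16.2%) and CTTTGAT, of Wnt-responsive Tcf factors, in 1 (2.0%, all 4.1%). A match is a description of letters and no binding site.

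Compared with all regions, other genes of the pathway had a high stage-specific share at both stages. The list held 12 genes for transcriptional regulators of the early precursors (Six4, Eya1, Eya2, Meox1, Meox2), for other precursor factors (Msc, Tcf21, Mef2c), and for signals and their transduction (Hgf, Gab1, Cxcr4, Cxcl12). They had 86 regions at E9.5, of which 39 were stage-specific (45.3%, 35.3 to 55.8%), and 98 at E10.5, of which 48 were (48.98%, 39.3 to 58.7%). Both shares lay above those of all regions, 29.9 and 35.0%, so the low share of the 8 genes at E10.5 was not seen here. Most of these regions were distal, 73 of 86 and 87 of 98. Of the distal ones, 49.3% (38.2 to 60.5%) and 55.2% (44.7 to 65.2%) were stage-specific. These intervals include the 40.3 and 49.6% of all distal regions, whereas those of the 8 genes did not, lying above at E9.5 and below at E10.5. A promoter region was listed for all 12 at E9.5 and for 11 at E10.5, where Tcf21 lacked one. Msc was counted here although it had 0 regions by nearest start, so the region near its start was given to another gene. By gene, 4 had more regions at E9.5, 6 had more at E10.5 and 2 had equal numbers. Eya2, a transcriptional cofactor, went from 8 regions to 3, and Meox1, a somite homeobox factor, from 6 to 4. In the other direction, Hgf, the ligand of Met that limb mesenchyme makes, had 7 regions at E9.5, of which 1 was stage-specific, and 13 at E10.5, of which 7 were. Cxcl12, the ligand of the receptor Cxcr4 on migrating precursors, had 5 and 10 regions, while Cxcr4 had 10 and 9. The receptor Met and its ligand Hgf thus went in opposite directions by number of regions.

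Genes of muscle structure had few regions at either stage. Of 10 such genes (Actc1, Acta1, Myh3, Mylpf, Myl1, Des, Ckm, Chrna1, Tnnc2, Tnni1), 4 had a promoter region in the earlier and 3 in the later list, compared with 65.1 and 62.5% of all protein-coding genes. These counts include Mylpf, which had 0 regions by nearest start, so the region near its start was given to another gene. They held 17 regions, 7 of them stage-specific (41.2%, 21.6 to 63.995%), and 14 regions, 4 of them stage-specific (28.6%, 11.7 to 54.6%), and both intervals include the shares of all regions, 29.9 and 35.0%. The gene for the slow troponin Tnni1 had 4 regions at E9.5, all stage-specific, and 0 at E10.5. The promoter of Des, for the filament protein desmin, had a region at E9.5 only and that of Myl1, for a myosin light chain, at E10.5 only.

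Markers of the tissues that the samples could hold were set beside the shares of all regions, 29.9 and 35.0%. The 5 limb mesenchyme markers (Prrx1, Tbx5, Msx1, Hand2, Lmx1b) had promoter regions at both stages, with stage-specific shares in the earlier and later list of 22.6% (12 of 53, 13.5 to 35.5%) and 32.3% (20 of 62, 22.0 to 44.6%). The 6 somite markers (Tbx6, Tcf15, Meox1, Uncx, Pax1, Pax9) had promoter regions at both stages too, with stage-specific shares of 35.0% (14 of 40, 22.1 to 50.5%) and 33.3% (14 of 42, 21.0 to 48.4%). Of the 6 markers of neural tube and crest (Sox10, Foxd3, Tcfap2b, Zic1, Sox2, Olig2), all but Sox10 had promoter regions at both stages, with stage-specific shares of 52.8% (19 of 36, 37.0 to 68.0%) and 43.3% (13 of 30, 27.4 to 60.8%). Sox2 went from 18 regions at E9.5 to 9, Foxd3 from 7 to 2 and the somite marker Uncx from 12 to 6, while Tcfap2b went from 7 to 17. Of the 4 blood vessel markers (Kdr, Tek, Cdh5, Pecam1), 1 had a promoter region at each stage, with 7 of 21 (33.3%, 17.2 to 54.6%) and 11 of 25 (44.0%, 26.7 to 62.9%) stage-specific. The intervals of the limb, somite and vessel markers include the shares of all regions, and those of the neural markers exclude it at E9.5 only. Most of these regions were distal. Beside the 40.3% of all distal regions at E9.5, the distal share of the limb markers was lower (23.9%, 13.9 to 37.9%). That of the neural markers was higher (61.3%, 43.8 to 76.3%). The other distal intervals of the marker sets included the share of all distal regions of their list. The neural markers thus came closest at E9.5 to the 51.0% of the 8 genes. Of their 19 E9.5-specific regions, 12 were at Sox2, while Tcfap2b and Zic1 had 0. The part of the marker tissues in the values of Pax3, Pax7 and Lbx1 was not tested.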

How the data were processed

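ATAC-seq libraries were made from 2 replicates per stage. Per the study's methods, the authors aligned reads to mm9 with Bowtie 1.1.0, keeping single positions, ran MACS 1.4 without a local background estimate, and combined replicates with MSPC (stringent p 1e-10, weak p 1e-06). The deposited score is the authors' value, the lowest MACS p-value of a region written as 10 times its negative log10. Read totals per sample were not used, so depth is unknown.

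Starts were read as counted from 0 and are printed from 1. Regions were annotated with GENCODE vM1 on NCBIM37 (0 ran past a chromosome end) by their centre. Overlaps, percentiles, Wilson and Newcombe intervals and sequence features were computed in Python 3.11.15 (pandas 2.3.3, numpy 2.4.6) after a check on simulated data. All 8 genes are named, each with its highest-scoring, promoter-proximal and highest-scoring stage-specific regions. Other genes of a list were singled out after their values were seen. Tfap2b was matched as Tcfap2b, and all listed genes were matched, of which 2, and a motif, are not reported here. The members, lists and motifs were chosen with earlier results of these data known.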

Additional observations from a re-analysis of the deposited data

How the results depend on the processing

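No paired analysis was possible because the replicates of a stage were merged into 1 list, and leaving out a replicate was not run for this reason. Of 170 alternatives, 152 kept a count within 1.5 times, or a share or difference within its interval, and 18 moved further. Values are given as E9.5 and E10.5. Keeping the higher-scoring 50% of each list, which removes weak regions and weak partners by construction, left 15 and 6 regions. Of these 86.7 and 66.7% were then stage-specific, 88.9 and 66.7% for Pax3, Lbx1 and Met and 83.3 and 66.7% for the other genes, beside 25.9 and 31.9% of all regions, so the E10.5 share of the 8 genes turned from below to above that of all regions. The promoter-proximal share at E10.5 became 50%, and 4 and 2 genes kept a promoter region. When only 1 list was restricted in this way, chosen after seeing the data, 33.3% of the E9.5 regions of the 8 genes, 33.3% of those of Pax3, Lbx1 and Met, and 0.0% of the latter's 3 regions at E10.5 were stage-specific.

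Reciprocal overlap of at least 50% gave 57.1 and 32.3%, beside 33.4 and 39.3% of all regions, with 63.3 and 38.9% for Pax3, Lbx1 and Met against 47.4 and 23.1% for the other genes. A score of at least 100, chosen after seeing the data, gave 52.3 and 21.4%, beside 30.8 and 35.1%. Leaving out each gene in turn gave 34 to 48 and 20 to 30 regions, stage-specific shares of 43.6 to 55.6% and 14.8 to 22.2%, and promoter-proximal shares of 17.8 to 26.5% and 22.2 to 35.0%. For Pax3, Lbx1 and Met the stage-specific share was 47.6 to 58.3% and 0.0 to 21.4%, and for the other genes 11.1 to 60% and 11.1 to 33.3%. The low values of 0.0% and, at E9.5, 11.1% came without Pax3 and without Pax7, and the 20 regions without Pax3. The difference between the groups was recomputed under 15 alternatives per stage, chosen after seeing the data. It kept its sign except in 2 at E9.5 (-6.67 points without Myf5 and 0.0 with 1 list restricted) and 3 at E10.5 (15.8 with reciprocal overlap, 0.0 in the higher-scoring 50% and 5.56 without Myf6). Leaving out a gene gave -6.67 to 42.2 points and -23.1 to 5.56 points. Its interval excluded 0 in 1 case, without Pax7 at E9.5. The cause of these changes was not tested beyond what a setting removes.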
